A study of Homo sapiens with 6 samples.

Results

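The genes described here serve protein folding in the endoplasmic reticulum (ER) and the unfolded protein response, the signalling system that adjusts the folding capacity of the ER to its load. They were chosen by name, as the rows of the count table whose symbol is 1 of 32 listed genes. All 32 were found among the 32357 genes of the table, and all 32 passed the expression filter that left 20144 genes for testing. RNA was measured in 786-O and A-498, established human clear cell renal cell carcinoma lines, in which short hairpins targeted ZNF395, a zinc finger protein. All cultures received a retroviral hairpin vector, made in HEK293T packaging cells of embryonic kidney origin, and were kept under puromycin selection. The control therefore carries a vector as well, with a non-targeting hairpin. Each line was measured once with the control, once with ZNF395 hairpin 1 and once with ZNF395 hairpin 3, which gave 6 libraries. No culture was repeated, so p-values rest on the spread that a model leaves between these 6 libraries, and part of that spread may be technical.

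As background, the lumen of the ER holds chaperones that fold secreted and membrane proteins, and kinases and transcription factors in the ER membrane that sense unfolded protein. ERN1 (IRE1) splices the XBP1 transcript, ATF6 is cut to release a transcription factor, and EIF2AK3 (PERK) phosphorylates eIF2 and so slows translation and favours ATF4. Their targets include chaperones, the ER-associated degradation (ERAD) machinery that returns misfolded proteins to the cytosol, and PPP1R15A, which helps to dephosphorylate eIF2. Gene counts do not separate spliced from unspliced XBP1, phosphorylated from unphosphorylated eIF2, or cut from intact ATF6, and none of these was measured.

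Many ER chaperone promoters carry an ER stress element (ERSE), CCAAT and CCACG separated by 9 bases, or the compact ERSE-II, ATTGG and CCACG separated by 1 base, which ATF6 and spliced XBP1 are known to bind. These letters were searched on both strands of the 300 bases around each RefSeq gene start (GRCh38.p14, 250 before and 50 after), in which 29 of the 32 genes were matched. The ERSE was found in 6 of 29 (20.7%), namely XBP1, HSPA5, HSP90B1, CRELD2, CALR and CANX, against 0.0769% of 35116 promoters. The ERSE-II was found in 3 of 29 (10.3%), HYOU1, SDF2L1 and HERPUD1, against 0.0541% of promoters. The core of another element, the UPRE, TGACGTG, was found in 1 of 29 (3.45%), HYOU1, against 1.97% of promoters, and there it overlaps an ERSE-II. The lines below show the 250 bases before the gene start, 5′ to 3′ on the gene's own strand, for the 5 motif-bearing genes that the results turn on. Capitals mark the fixed letters of the ERSE or ERSE-II on either strand and, in HYOU1, of the UPRE core. XBP1 lies at chr22:28800570-28800819 on the minus strand, HERPUD1 at chr16:56931892-56932141 on the plus strand, HSPA5 at chr9:125241344-125241593 on the minus strand, HSP90B1 at chr12:103930160-103930409 on the plus strand and HYOU1 at chr11:119057206-119057455 on the minus strand.
XBP1 promoter: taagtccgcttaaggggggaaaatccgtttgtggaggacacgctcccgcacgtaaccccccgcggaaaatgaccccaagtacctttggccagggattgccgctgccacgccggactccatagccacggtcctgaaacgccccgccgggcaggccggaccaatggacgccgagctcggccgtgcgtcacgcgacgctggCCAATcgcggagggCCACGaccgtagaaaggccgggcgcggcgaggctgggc
HERPUD1 promoter: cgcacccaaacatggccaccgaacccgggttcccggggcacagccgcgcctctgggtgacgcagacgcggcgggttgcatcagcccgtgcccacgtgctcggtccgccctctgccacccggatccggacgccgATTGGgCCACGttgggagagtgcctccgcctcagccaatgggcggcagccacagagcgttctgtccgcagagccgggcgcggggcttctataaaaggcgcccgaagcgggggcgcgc
HSPA5 promoter: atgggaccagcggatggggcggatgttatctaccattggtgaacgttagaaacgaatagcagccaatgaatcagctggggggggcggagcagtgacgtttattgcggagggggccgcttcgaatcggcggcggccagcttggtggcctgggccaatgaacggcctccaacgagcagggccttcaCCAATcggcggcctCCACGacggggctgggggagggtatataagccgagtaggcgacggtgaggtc
HSP90B1 promoter: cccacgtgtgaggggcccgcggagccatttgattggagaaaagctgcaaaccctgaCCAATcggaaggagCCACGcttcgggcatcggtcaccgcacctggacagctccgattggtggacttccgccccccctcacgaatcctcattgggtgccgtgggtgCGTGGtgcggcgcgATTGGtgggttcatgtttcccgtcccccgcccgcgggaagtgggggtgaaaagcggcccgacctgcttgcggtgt
HYOU1 promoter: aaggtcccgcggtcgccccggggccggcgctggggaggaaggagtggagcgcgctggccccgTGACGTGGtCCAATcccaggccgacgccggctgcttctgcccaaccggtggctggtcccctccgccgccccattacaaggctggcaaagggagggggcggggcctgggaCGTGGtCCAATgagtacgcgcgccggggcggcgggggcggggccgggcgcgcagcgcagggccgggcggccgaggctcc
A match describes letters in this window and is not a measured binding site. The 32 genes were chosen by name as genes of the response in which these elements are known. A higher share among them than among all promoters therefore carries no test.

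Library totals ran from 77534125 to 99147218 counts. Levels are TMM-scaled counts per 1000000 (CPM) and are listed below in the order control, hairpin 1, hairpin 3. ZNF395 itself stood at 96.3, 24.7 and 13.5 CPM in 786-O, and for A-498 the levels were 67.9, 14.5 and 14.3 CPM. Marker levels here and below are CPM on plain library totals. Of 11 renal epithelial and carcinoma markers 9 were at 1 CPM or more in every library. The exceptions were CA9, between 0 and 0.0125 CPM in 786-O and between 0.413 and 1.75 CPM in A-498, and NDUFA4L2, between 0.0774 and 1.1 CPM over all libraries. All 6 immune markers found in the table were under 1 CPM in every library, as were 5 of 6 endothelial, 4 of 7 fibroblast and 4 of 5 plasma cell markers, the plasma cell being a professional secretory cell.

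**Figure D1:**
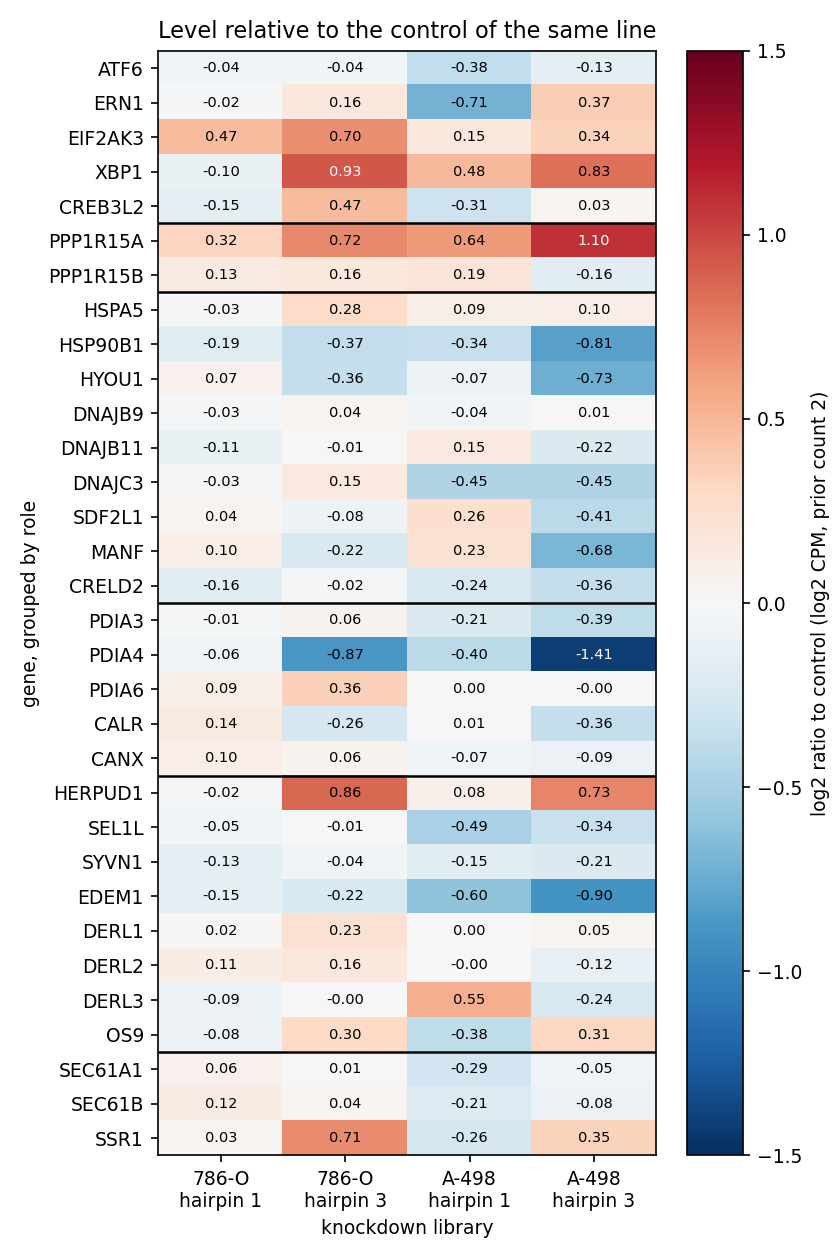
Log2 ratio of each of the 32 genes to the control of the same line (columns: the 4 knockdown libraries, log2 CPM with a prior count of 2). Rows are grouped by role, from sensors at the top to the translocon at the bottom, and the numbers are the ratios. XBP1, PPP1R15A and HERPUD1 are above and PDIA4, HYOU1 and HSP90B1 below their control in both hairpin 3 columns.

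With hairpin 3, XBP1, HERPUD1 and PPP1R15A rose and PDIA4 fell, in edgeR's quasi-likelihood test over all genes with the lines as replicates. That is 4 of 32 genes (12.5%, against 6.71% of all genes tested), 3 of them higher (9.38%, against 2.55%) and 1 lower (3.12%, against 4.16%). Of the 32, 14 had a positive and 18 a negative fold change, and their median was -0.0211 on the log2 scale, with -0.00955 over all genes. At an unadjusted p under 0.05 there were 11 (34.4%, against 25.8% of all genes).

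XBP1, the transcription factor downstream of ERN1, stood at 135, 125 and 258 CPM in 786-O and at 77.7, 109 and 138 CPM in A-498. The hairpin 3 library was the highest of its line in both, while hairpin 1 was below the control in 786-O and above it in A-498. The fold change with hairpin 3 was 0.88 (log2, SE 0.185, edgeR adjusted p = 0.0393). HERPUD1, a membrane protein that organises the ERAD complex, stood at 66.2, 65.3 and 120 CPM in 786-O and at 64.0, 67.6 and 106 CPM in A-498. Control and hairpin 1 libraries of both lines lay close together and apart from both hairpin 3 libraries. HERPUD1 rose by 0.80 (SE 0.121, adjusted p = 0.0189 in edgeR). PPP1R15A, the stress-induced subunit that targets a phosphatase to eIF2, stood at 63.8, 79.7 and 105 CPM in 786-O and at 92.3, 144 and 197 CPM in A-498. Hairpin 3 exceeded hairpin 1, and hairpin 1 the control, in both lines. Its fold change with hairpin 3 was 0.91 (SE 0.139, edgeR adjusted p = 0.0195).

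PDIA4, a protein disulfide isomerase that forms and rearranges disulfide bonds in the ER, moved the other way. It stood at 771, 740 and 422 CPM in 786-O and at 593, 448 and 223 CPM in A-498. The fold change with hairpin 3 was -1.14 (SE 0.161, edgeR adjusted p = 0.0166), the lowest among the 32 genes. In each line hairpin 3 left the lowest level. Without the A-498 control none of the 4 genes was called (0.572% of all genes), and without the 786-O control only PDIA4 was (1.11% of all genes). XBP1 was also lost without the 786-O hairpin 3 library. Without that library MANF, HSP90B1, HYOU1 and EDEM1 were called lower beside PDIA4, as were 6.62% of all genes, against 4.16% with all libraries. Without the A-498 hairpin 3 library SSR1 was called higher, as were 4.11% of all genes, against 2.55% with all libraries.

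**Figure D2:**
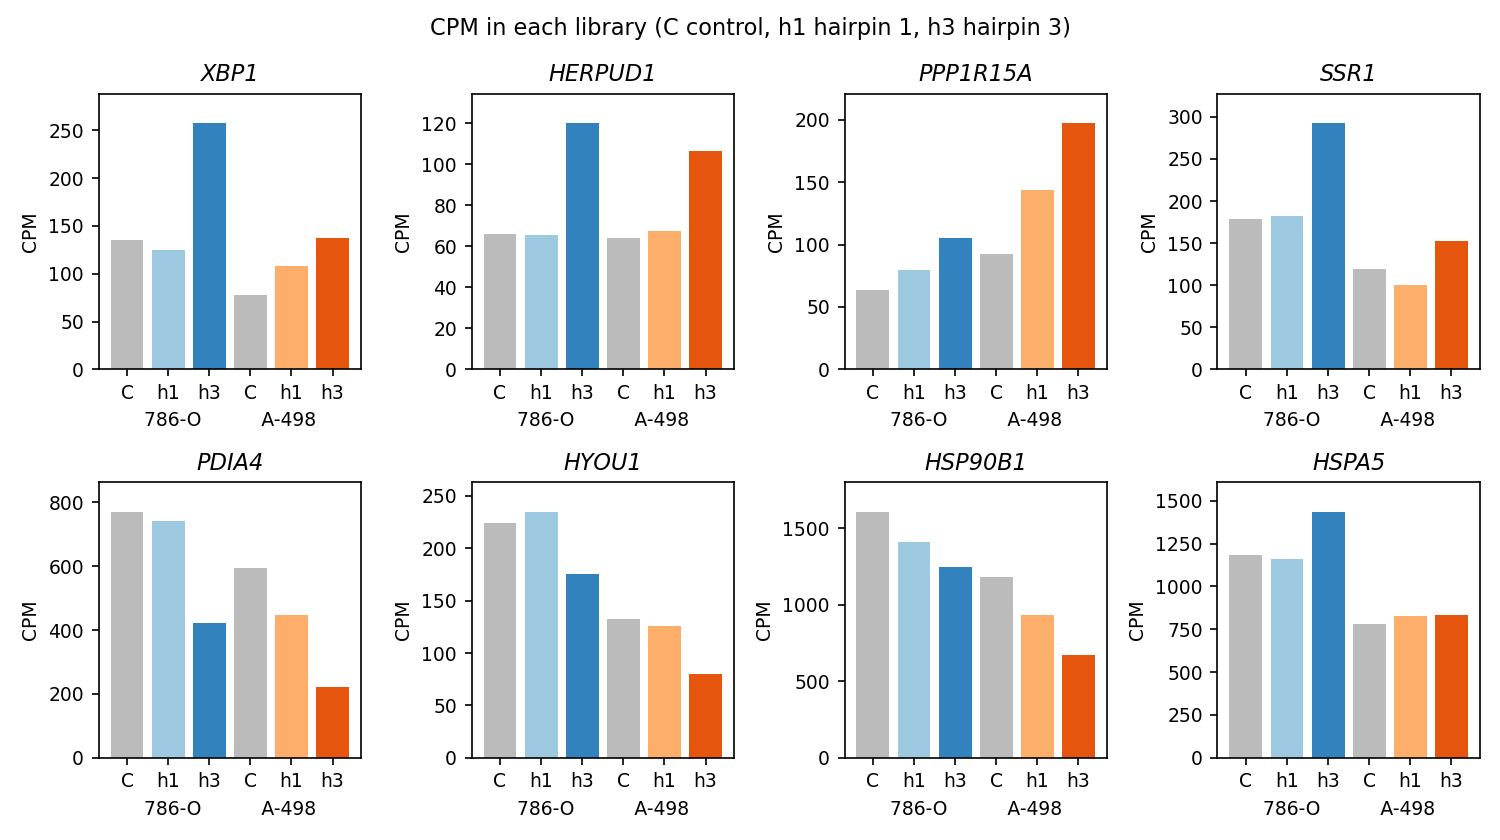
TMM-scaled counts per 1000000 (CPM) of 8 genes in the 6 libraries, 1 bar per library, with each panel's axis starting at 0 (C control, h1 hairpin 1, h3 hairpin 3). In the upper row the hairpin 3 bar is the highest of its line, and in the PDIA4, HYOU1 and HSP90B1 panels the lowest. There are no error bars, since each bar is 1 library.

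Several chaperones lay on the lower side with hairpin 3 without being called. HSP90B1 (GRP94), the HSP90 of the ER, stood at 1610, 1414 and 1248 CPM in 786-O and at 1184, 935 and 674 CPM in A-498, with a fold change of -0.59 (SE 0.152, edgeR adjusted p = 0.0675). HYOU1, the large HSP70-like exchange factor of HSPA5, stood at 224, 235 and 175 CPM in 786-O and at 132, 126 and 79.9 CPM in A-498. Its fold change was -0.54 (SE 0.136, edgeR adjusted p = 0.0627), and the hairpin 3 library was the lowest of each line. For MANF, a secreted protein that binds HSPA5, the values were 78.3, 83.9 and 67.0 CPM in 786-O and 34.8, 40.9 and 21.7 CPM in A-498 (fold change -0.44, SE 0.164, edgeR adjusted p = 0.152). CALR, the soluble lectin chaperone calreticulin, had 1565, 1724 and 1311 CPM in 786-O and 836, 842 and 651 CPM in A-498 (-0.31, SE 0.127, edgeR adjusted p = 0.185). EDEM1, which helps to pass misfolded glycoproteins to ERAD, had 72.3, 65.4 and 62.0 CPM in 786-O and 61.0, 40.2 and 32.7 CPM in A-498. For EDEM1 the fold change with hairpin 3 was -0.57 (SE 0.175, edgeR adjusted p = 0.101). In DESeq2, HSP90B1 and HYOU1 were called lower and EIF2AK3 and SSR1 higher in addition, which made 5 higher (5.52% of all genes in DESeq2) and 3 lower (7.34%).

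HSPA5 (BiP), the ER HSP70 whose level is widely read as a marker of ER stress, did not follow these chaperones. It stood at 1185, 1157 and 1437 CPM in 786-O and at 779, 830 and 832 CPM in A-498. The hairpin 3 library was 121.2% of the control in 786-O and 106.8% in A-498, and the fold change was 0.19 (SE 0.137, edgeR adjusted p = 0.44). The cochaperone DNAJB9, a textbook target of spliced XBP1, lay between 31.1 and 32.8 CPM in all 6 libraries. The other J-domain cochaperones had 117 to 127 CPM (DNAJB11) and 72.3 to 81.9 CPM (DNAJC3) in 786-O, and 72.8 to 93.6 and 52.5 to 71.6 CPM in A-498. CANX, the membrane lectin chaperone calnexin, had 1377, 1480 and 1431 CPM in 786-O and 997, 951 and 936 CPM in A-498. No hairpin called any of these.

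Among the sensors, EIF2AK3 was above its control in all 4 knockdown libraries, with 28.7, 39.8 and 46.6 CPM in 786-O and 28.4, 31.6 and 36.1 CPM in A-498. Its fold change with hairpin 3 was 0.52 (SE 0.141, edgeR adjusted p = 0.0766). ATF6 lay between 92.4 and 95.2 CPM in 786-O, with 82.1, 63.3 and 74.9 CPM in A-498. ERN1 had 10.9, 10.7 and 12.1 CPM in 786-O and 14.6, 8.91 and 18.9 CPM in A-498. CREB3L2, an ER-bound transcription factor related to ATF6, had 201, 181 and 280 CPM in 786-O and 157, 126 and 160 CPM in A-498. For ERN1 and CREB3L2 hairpin 3 was the highest and hairpin 1 the lowest library of each line.

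The remaining chaperones and ERAD genes were called with neither hairpin. SDF2L1, a partner of the J-domain cochaperones, had 23.6, 24.3 and 22.4 CPM in 786-O and 15.4, 18.4 and 11.6 CPM in A-498, and CRELD2, a secreted ER stress protein, had 35.2 to 39.2 and 26.9 to 34.5 CPM. PDIA6, another disulfide isomerase, had 439, 467 and 564 CPM in 786-O and 355 to 357 CPM in A-498. Its libraries thus spread in 786-O and lay together in A-498. SEL1L had 88.5 to 91.4 CPM in 786-O and 65.9 to 92.6 CPM in A-498, and its partner SYVN1 had 29.4 to 32.2 and 20.4 to 23.7 CPM. OS9 had 145, 137 and 178 CPM in 786-O and 133, 102 and 165 CPM in A-498, the hairpin 3 library being the highest of each line. The derlins DERL1 and DERL2 had 151 to 178 and 37.4 to 41.7 CPM in 786-O, with 126 to 130.3 and 44.5 to 48.3 CPM in A-498.

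Of the 9 genes with an ERSE or ERSE-II, 3 had a positive and 6 a negative fold change with hairpin 3, and 2 were called, XBP1 and HERPUD1, both higher. The other 7 ranged from -0.59 to 0.19. Of the 20 matched genes with neither, 10 were positive, 10 negative and 2 called, PPP1R15A higher and PDIA4 lower. Genes that share these letters, such as XBP1 and HSP90B1 printed above, thus stood on opposite sides of their controls with hairpin 3.

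Hairpin 1 called none of the 32 genes, against 0.149% of all genes (0.0397% higher and 0.109% lower). At an unadjusted p under 0.05 there was 1 gene (3.12%, against 10.5%), PPP1R15A, with a fold change of 0.48 (SE 0.138, edgeR adjusted p = 0.298). DESeq2 also called 0 (2.31% of all genes), with 1 gene at an unadjusted p under 0.05 (8.8% of all genes). The next largest fold changes were -0.39 for EDEM1 (SE 0.174), -0.35 for ERN1 (SE 0.233), 0.31 for EIF2AK3 (SE 0.141) and -0.27 for SEL1L (SE 0.143), the adaptor of the ERAD ubiquitin ligase SYVN1. The genes called with hairpin 3 had 0.20 (XBP1, SE 0.184), 0.0301 (HERPUD1, SE 0.120) and -0.24 (PDIA4, SE 0.159) with hairpin 1. In 786-O the 32 ratios of hairpin 1 to control ran from -0.19 to 0.47 on the log2 scale, and 0 of them exceeded 0.5 in size, against 19.4% of all genes. In A-498 they ran from -0.71 to 0.64, with 4 over 0.5 in size, against 24.6%. For hairpin 3, 6 of the 32 ratios exceeded 0.5 in size in 786-O, against 35.2% of all genes. In A-498 8 of the 32 did, against 33.5%. Both hairpins were compared with the same 2 controls.

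**Figure D3:**
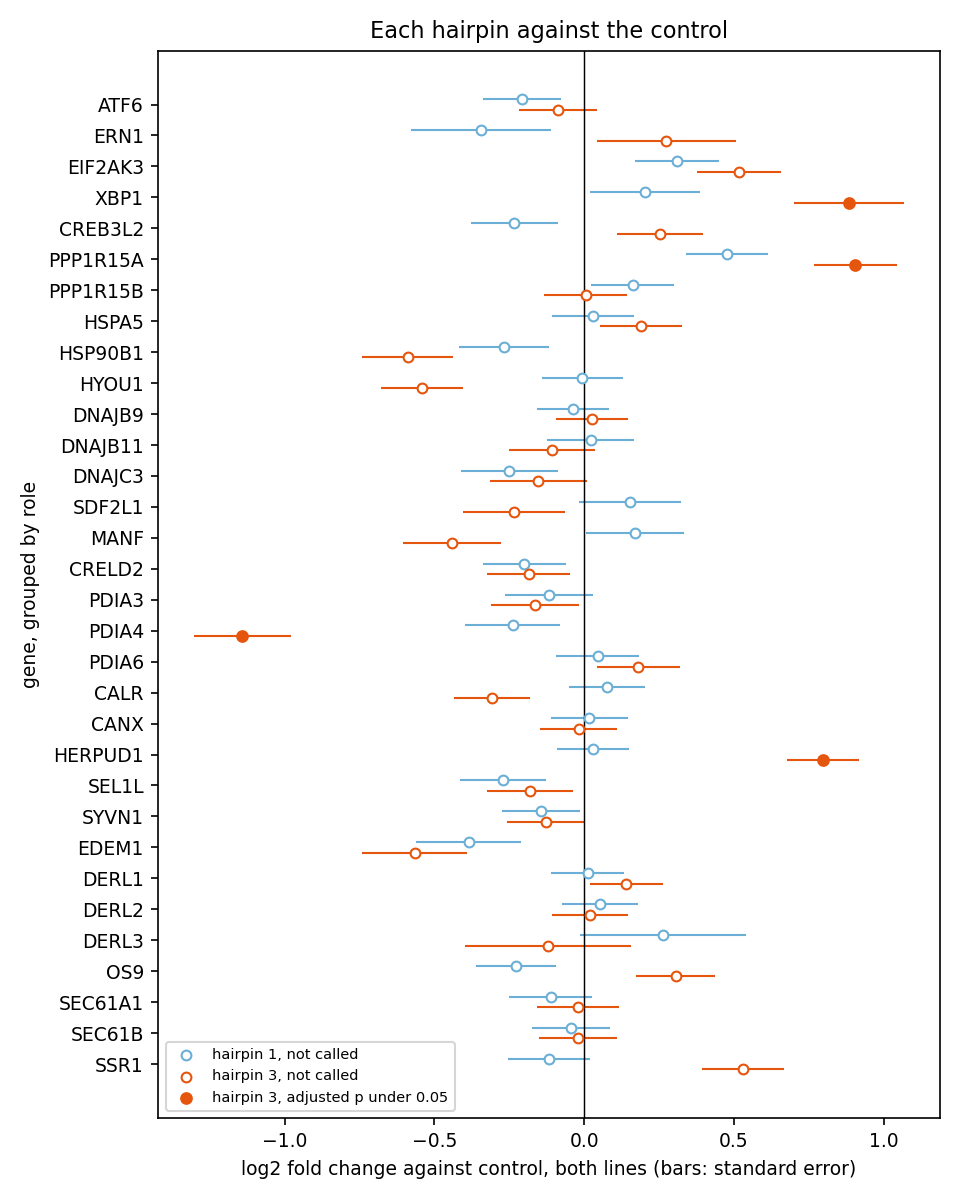
Log2 fold change of each gene with hairpin 1 (blue) and hairpin 3 (orange) against the control over both lines, with standard errors as bars and filled points for an edgeR adjusted p under 0.05. The 4 filled points, PDIA4 at -1.14 and HERPUD1, XBP1 and PPP1R15A between 0.80 and 0.91, all belong to hairpin 3.

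The difference between the hairpins was tested directly. Its estimate does not use the control levels, but its error does, since the fit takes the spread from all 6 libraries. HERPUD1 (0.77, SE 0.121, adjusted p = 0.0176) and SSR1 (0.65, SE 0.136, adjusted p = 0.0356) were higher and PDIA4 (-0.90, SE 0.160, adjusted p = 0.0235) was lower with hairpin 3 than with hairpin 1 in edgeR. These are 3 of 32 genes (9.38%, against 9.48% of all genes), 2 higher (6.25%, against 4.09%) and 1 lower (3.12%, against 5.4%). SSR1, a subunit of the translocon-associated complex that assists protein entry into the ER, stood at 179, 182 and 293 CPM in 786-O and at 120, 100 and 153 CPM in A-498. In both lines the hairpin 3 library was above the other libraries of its line. Against the control, SSR1 was not called with hairpin 3 (0.53, SE 0.136, edgeR adjusted p = 0.0674). Of the protein channel itself, SEC61A1 had 446 to 464 CPM and SEC61B 124 to 134 CPM in 786-O, with 337 to 411 and 90.8 to 105 CPM in A-498. At an unadjusted p under 0.05 there were 11 genes (34.4%, against 28%). Just short of a call were OS9 (0.53, SE 0.133, adjusted p = 0.0537), an ERAD lectin, HYOU1 (-0.54, SE 0.136, adjusted p = 0.0555), MANF (-0.61, SE 0.165, adjusted p = 0.065) and XBP1 (0.68, SE 0.185, adjusted p = 0.066) in edgeR. ERN1 was not called either (0.62, SE 0.234, edgeR adjusted p = 0.144). DESeq2 called 5 higher (6.59% of all genes) and 4 lower (8.25%), adding XBP1, CREB3L2 and OS9 on the higher side and HYOU1, MANF and CALR on the lower. Without the 786-O hairpin 1 library 0 of the 32 were called (1.25% of all genes), and without the 786-O hairpin 3 library 5 were called higher (7.74%) and 4 lower (8.78%). Without the A-498 hairpin 3 library 4 were called higher (4.16%), and SSR1 was lost without the A-498 hairpin 1 library.

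Set against each other line by line, the log2 ratios of hairpin 3 to hairpin 1 had a Pearson r of 0.72 over the 32 genes (Spearman 0.72), against 0.577 (0.556) over the 11027 genes that averaged 5 CPM or more. This describes 4 libraries, in which genes share depth and scaling, and carries no test. PDIA4 was at -0.81 in 786-O and -1.01 in A-498, HERPUD1 at 0.88 and 0.65, and SSR1 at 0.68 and 0.61. XBP1 differed more in 786-O (1.04) than in A-498 (0.34), and ERN1 more in A-498 (1.08) than in 786-O (0.18). The sign was the same in both lines for 22 of 32 genes (68.8%, against 70.1%). Counting libraries, hairpin 3 exceeded both control and hairpin 1 in both lines for 11 of 32 genes (34.4%, against 22.7% of all genes), HSPA5 and EIF2AK3 among them. It lay below both for 7 (21.9%, against 23.4%), namely HSP90B1, HYOU1, SDF2L1, MANF, PDIA4, CALR and EDEM1.

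**Figure D4:**
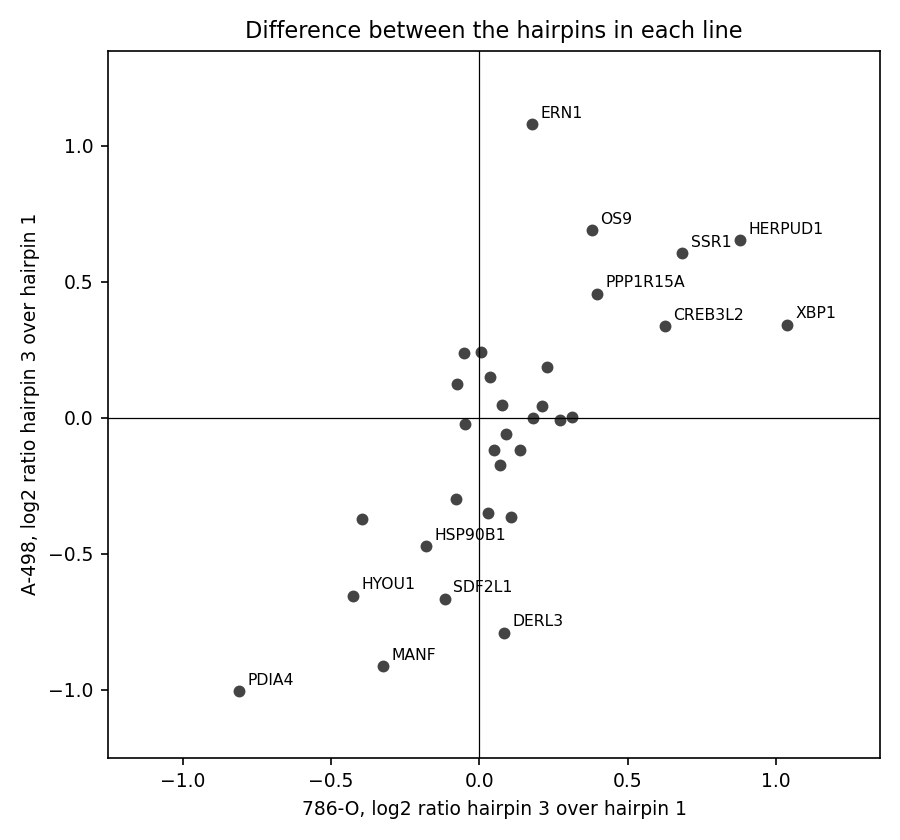
Log2 ratio of hairpin 3 to hairpin 1 in 786-O (x axis) and in A-498 (y axis), 1 point per gene, with names where either ratio exceeds 0.45 in size. HERPUD1, SSR1, OS9, PPP1R15A, CREB3L2 and XBP1 lie in the upper right quadrant and PDIA4, MANF, HYOU1, SDF2L1 and HSP90B1 in the lower left.

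With both hairpins pooled against the control, none of the 32 genes was called, as of all genes (0%). This fit did not call ZNF395 either (-2.29, SE 0.235, edgeR adjusted p = 0.358), the gene that the hairpins target. A lack of calls in it therefore does not tell changed from unchanged genes. At an unadjusted p under 0.05 there were 3 (9.38%, against 5.03% of all genes): PPP1R15A (0.71, SE 0.211), EIF2AK3 (0.42, SE 0.167) and EDEM1 (-0.47, SE 0.182), with an edgeR adjusted p = 0.939 for each. DESeq2 called 0 as well (0.457% of all genes), with 3 at an unadjusted p under 0.05 (5.33% of all genes). Other large pooled fold changes were -0.62 for PDIA4 (SE 0.333), 0.58 for XBP1 (SE 0.297), 0.46 for HERPUD1 (SE 0.295) and -0.42 for HSP90B1 (SE 0.179). All 4 knockdown libraries were above the control of their line for 3 of 32 genes (9.38%, against 13.3% of all genes), PPP1R15A, EIF2AK3 and DERL1. They were below it for 7 (21.9%, against 14%): ATF6, HSP90B1, CRELD2, PDIA4, SEL1L, SYVN1 and EDEM1. In the authors' deposited table, which pools the hairpins and sets control over knockdown, 0 of the 32 genes have an adjusted p under 0.05 (0.263% of all genes) and 3 have an unadjusted p under 0.05 (3.27% of all genes). PPP1R15A has the smallest p of them in the authors' deposited table, at -0.58 on the log2 scale (SE 0.212) and an adjusted p = 0.325.

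The response to pooled knockdown was also compared between the lines, as the difference of the A-498 and 786-O responses. No member was called (0% of all genes), none had an unadjusted p under 0.05 (0.789% of all genes), and DESeq2 called 0 too. The fold differences furthest from 0 were those of EDEM1 (-0.56, SE 0.382), DNAJC3 (-0.51, SE 0.359), PDIA4 (-0.41, SE 0.724) and SEL1L (-0.39, SE 0.354), each with an edgeR adjusted p = 1. Without the 786-O hairpin 1 library the PDIA4 difference was 0.0911, and without the A-498 hairpin 3 library 0.0297. Each of these fits left 1 line with 1 hairpin and the other with both. The differences were negative for 28 of 32 genes, with a median of -0.18 against -0.0134 for all genes. This lean was not particular to the 32. The gene lists outside them, described below, had medians from -0.198 (translocation and glycosylation) to -0.0113 (other stress regulators). Cytosolic heat shock genes had -0.158. The share of negative differences over all genes was not counted.

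Between the lines these genes were called about as often as all genes, but nearly all of those called were lower in A-498. Of the 32 genes 14 were lower in A-498 (43.8%, against 21.4% of all genes) and 1 was higher (3.12%, against 25.7%), so that 15 differed (46.9%, against 47.2%). At an unadjusted p under 0.05 there were 22 (68.8%, against 54.9%). The median fold change was -0.42 over the 32 and 0.0202 over all genes. The summed share of the 32 genes in the library was 1.02, 1 and 0.97% for 786-O, and 0.744, 0.704 and 0.659% for A-498. The 7 fibroblast markers summed to 6.66 to 9.35 CPM in 786-O and 20.8 to 43.1 CPM in A-498, and moved in both directions. COL1A1 had 1.47 to 3.2 CPM in 786-O and 19.3 to 42.1 CPM in A-498. LUM had 3.86 to 4 CPM in 786-O and 0.0214 CPM or less in A-498, and PDGFRB had 1.22 to 2.27 and 0.49 to 0.972 CPM. COL1A2, COL3A1, DCN and FAP were under 1 CPM throughout. Of the 4 that could be tested 2 were higher in A-498, COL1A1 and FAP, and 2 lower, LUM and PDGFRB. The 5 plasma cell markers summed to 139 to 264 and 250 to 445 CPM, nearly all SDC1, which epithelial cells also express. Both cultures are established carcinoma lines rather than tissue, and no cell types were counted. Any part of these markers in the line difference was not tested. In bulk RNA, a marker level does not tell how many cells express it.

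The lowest fold change of A-498 against 786-O was that of MANF (-1.24, SE 0.252, edgeR adjusted p = 0.00766), whose highest A-498 level (40.9 CPM) lay below its lowest 786-O level (67.0 CPM). CALR followed with -0.98 (SE 0.172, edgeR adjusted p = 0.0043). PDIA3, the disulfide isomerase that works with CALR and CANX on glycoproteins, stood at 711, 705 and 740 CPM in 786-O and at 453, 391 and 347 CPM in A-498 (-0.86, SE 0.140, edgeR adjusted p = 0.00323). The libraries of the lines did not overlap for these genes, and all 3 were called in each of the 6 fits that left out 1 library. The chaperones HYOU1 (-0.92), HSPA5 (-0.63), HSP90B1 (-0.63), SDF2L1 (-0.63) and DNAJB11 (-0.56) were lower too. So were CANX (-0.57), PDIA6 (-0.46), SSR1 (-0.80) and SEC61B (-0.39). Of the ERAD genes EDEM1 (-0.62) and SYVN1 (-0.51) were lower. Their edgeR adjusted p ran from 0.00937 for CANX to 0.0495 for SEC61B. Leaving out either control left MANF, PDIA3, CALR and EDEM1 as the called genes (10% of all genes lower without the 786-O control, 10.5% without the A-498 control). Without the 786-O hairpin 3 library 8 were lower (18.1% of all genes) and without the A-498 hairpin 1 library 9 (19.5%). PDIA6 and SEC61B were lost without any 1 of the 6 libraries.

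PPP1R15A was the gene called higher in A-498, with a fold change of 0.77 (SE 0.194, edgeR adjusted p = 0.0172), although its 786-O hairpin 3 library (105 CPM) exceeded the A-498 control (92.3 CPM). It was lost without either control or the 786-O hairpin 1 library, and 3 genes were called higher without the A-498 hairpin 3 library (23.6% of all genes). DERL3, of the derlin family of ERAD, had the lowest levels of the 32 genes, with 121 to 297 counts per library. It had 1.54 to 1.64 CPM in 786-O and 2.13 to 3.71 CPM in A-498 (0.79, SE 0.280, edgeR adjusted p = 0.0562). PPP1R15B, the constitutive counterpart of PPP1R15A, had 115 to 129 CPM in 786-O and 140 to 179 CPM in A-498 (0.36, SE 0.146, edgeR adjusted p = 0.083). XBP1 (-0.69, SE 0.274, edgeR adjusted p = 0.0788), PDIA4 (-0.65, SE 0.321, edgeR adjusted p = 0.137) and CREB3L2 (-0.58, SE 0.209, edgeR adjusted p = 0.0585) were not called. With the hairpin as a block all 3 were called lower in edgeR, with an adjusted p = 0.00915 for XBP1, 0.00378 for PDIA4 and 0.00532 for CREB3L2. CREB3L2 was also called with DESeq2 (adjusted p = 0.0473) and, in edgeR, without the filter on low counts (adjusted p = 0.0436). DESeq2 called 15 genes lower (22.6% of all genes) and 2 higher (26.5%). The block called 21 genes lower (29.7% of all genes) and 3 higher (32.1%), the latter PPP1R15A, PPP1R15B and DERL3. All 3 A-498 libraries lay below all 3 786-O libraries for 20 of 32 genes (62.5%, against 28% of all genes) and above them for 3 (9.38%, against 31.1%), PPP1R15B, DERL2 and DERL3.

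**Figure D5:**
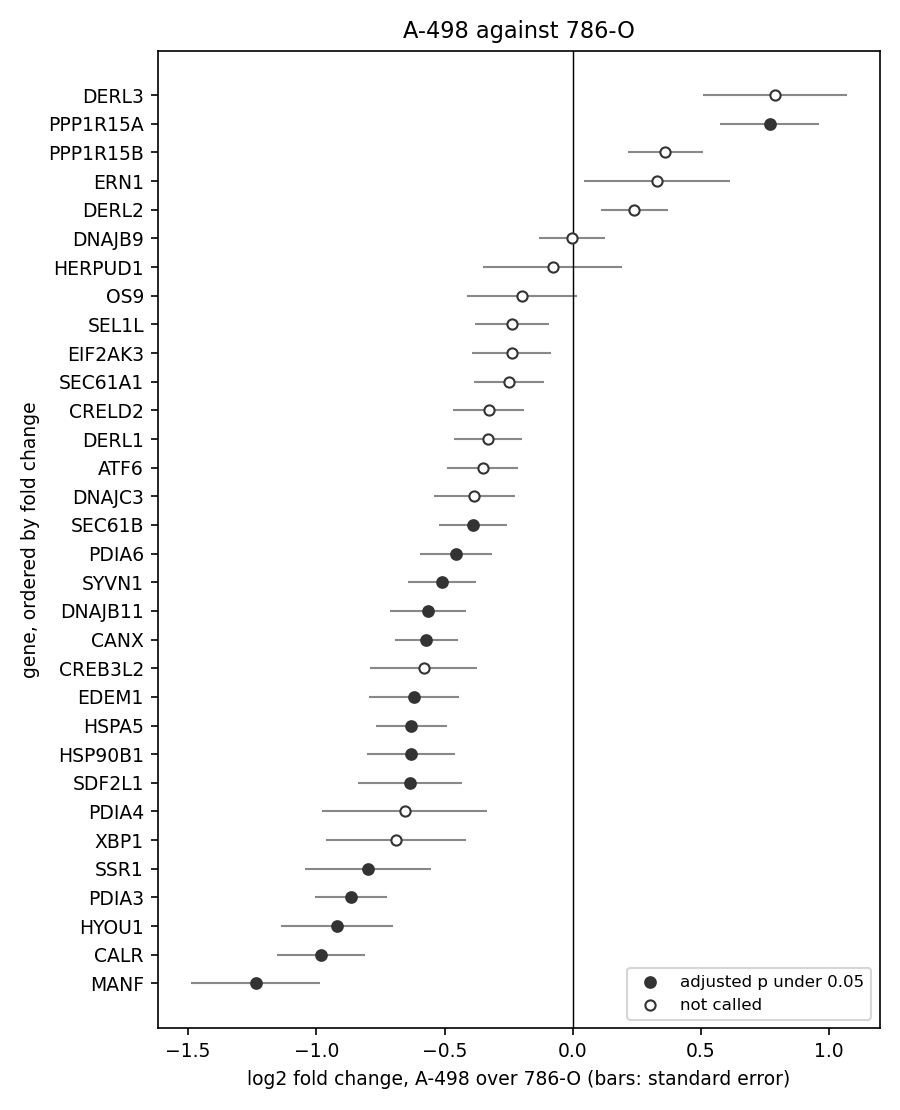
Log2 fold change of A-498 over 786-O for each of the 32 genes, with standard errors as bars and filled points for an edgeR adjusted p under 0.05, in order of size. The 14 filled points left of 0 run from MANF at -1.24 to SEC61B at -0.39, and PPP1R15A at 0.77 is the filled point on the right.

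Other genes of the same pathways were read from lists outside the 32. Their counts with hairpin 3 stand against 2.55% of all genes higher and 4.16% lower, 6.71% in all. With hairpin 3, 3 of 23 other stress regulators rose and 1 fell. The 3 were ATF4 (1.26, SE 0.163, edgeR adjusted p = 0.0145), the transcription factor favoured by phosphorylated eIF2, and its targets CHAC1 (2.72, SE 0.376) and DDIT3 (1.01, SE 0.209), which encodes CHOP. ATF4 stood at 439, 406 and 925 CPM in 786-O and at 258, 348 and 705 CPM in A-498, with the highest level under hairpin 3 in both. The gene that fell, ERN2, was at 0.401 CPM or less in every library. Of 41 other ER folding genes 3 rose, namely ERO1L, the oxidase that recharges disulfide isomerases (0.95), ERP29 (0.85) and TMX3 (0.53), and SDF2, a relative of SDF2L1, fell (-0.74). Of 28 further ERAD genes RNF139 (0.63) rose and FAF2 (-1.22) and UBAC2 (-0.74) fell. Of 35 translocation and glycosylation genes 1 rose, SPCS3 of the signal peptidase (0.72). In ER to Golgi transport 3 of 28 fell, TMED9 (-1.24), BET1 (-0.71) and COPB1 (-0.59). Cytosolic heat shock genes had 2 of 18 lower, DNAJB4 (-0.97) and HSPA4 (-0.56), and 0 of 11 mitochondrial chaperones were called. Hairpin 1 called 0 genes of these 7 lists.

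Between the lines, 23 of the 41 other ER folding genes were lower in A-498 and 3 higher (median -0.64), against 21.4% of all genes lower and 25.7% higher. The counts of the other lists stand against the same shares. PDIA5 (-1.63), the peroxidase PRDX4 (-1.74) and KDELR3 (-1.13), a receptor that returns escaped ER proteins, were lower, and the testis chaperone gene CLGN was higher, at 13.7 to 22.3 CPM against 0.0932 to 0.114 CPM. Of 35 translocation and glycosylation genes 14 were lower and 0 higher (median -0.36), of 28 transport genes 10 and 1 (median -0.32), and of 28 further ERAD genes 8 and 3 (median -0.15). Outside the ER, cytosolic heat shock genes had 4 lower and 3 higher of 18 (median -0.25) and mitochondrial chaperones 2 and 1 of 11 (median -0.30). The calls among the 23 other stress regulators were 0 lower and 7 higher in A-498, while 10 of the 23 fold changes were positive (median -0.0549). CREB3, CREB3L4, NFE2L2 and ATF3 were among those higher. So were ERN2, at 0.401 CPM or less in every library, and CREB3L3, at 1.09 CPM or less. The median of all genes was 0.0202.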

How the data were processed

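The authors deposited raw read counts by gene symbol in 1 table, made from a TruSeq Stranded Total RNA preparation, per the labels' protocols. The submitters' processing notes name the tools STAR and DESeq2 and the builds hg19 and hs37d5. Not given in the sources used here are versions, the counter, the annotation, and which strand was counted. Per the file headers the table also holds the authors' mean normalized signal, log2 fold change with SE, Wald score, p-value and adjusted p-value. No number column was left unlisted (0).

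Counts were filtered with edgeR 4.0.16 (R 4.3.3) over knockdown status, TMM-scaled and tested with quasi-likelihood F tests, with Benjamini-Hochberg adjustment over all 20144 genes and genes under 0.05 were called. Standard errors come from the F statistic. Each hairpin against the control and against the other used line and construct (2 residual degrees of freedom), pooled knockdown and the lines used line and knockdown status (3), and the difference between lines used 4 means (2). DESeq2 1.42.0, DESeq2 size factors, no filter, plain totals, the hairpin as replicate block and leaving out each library were tried. The replicate number is the hairpin, so it pairs the knockdown libraries by reagent across lines (correlation of hairpin differences over genes 0.577). At 1 TMM-scaled CPM a library has 75.1 to 99.7 counts.

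The genes, lists and roles were chosen with earlier results of these data known. All 32 genes are accounted for; named are those called, the 4 uncalled with the widest fold change per comparison, and, after their values were seen, a few others such as HSPA5, EIF2AK3, MANF, CALR, OS9 and CREB3L2. Of other lists, up to 4 called genes each are named. Promoters are RefSeq's, GRCh38.p14; for 28 of 29 the bases after the start were found in sense in GENCODE transcripts. In GENCODE 21 of the 32 genes overlap a gene on the opposite strand, among them EIF2AK3, HSP90B1, HYOU1, CALR, EDEM1 and SSR1. With the strand setting unknown their counts are uncertain to that extent. A further overlap, with a gene on the same strand, holds for 10 genes, among them HERPUD1, SSR1 and SYVN1. Their counts are uncertain whichever strand was counted, as are those of PDIA3, XBP1 and SSR1, which have named pseudogenes.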

Additional observations from a re-analysis of the deposited data

How the results depend on the processing

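Shares of all genes called the same way stand in brackets. Among the 32 genes, hairpin 3 called 3 higher (2.55%) and 1 lower (4.16%) than the control. Without the filter on low counts these were 5 (3.21%) and 4 (4.99%), and with DESeq2 5 (5.52%) and 3 (7.34%). Leaving out each library gave 0 to 4 higher (0.175 to 5.06%) and 0 to 5 lower (0.397 to 6.62%). Hairpin 3 against hairpin 1 called 2 higher (4.09%) and 1 lower (5.4%). Without the filter these were 5 (3.99%) and 3 (5.65%), and with DESeq2 5 (6.59%) and 4 (8.25%). Over the left-out libraries they were 0 to 5 (0.532 to 7.74%) and 0 to 4 (0.718 to 8.78%). A-498 against 786-O called 1 higher (25.7%) and 14 lower (21.4%), and DESeq2 called 2 higher (26.5%). The left-out libraries gave 0 to 3 higher (16 to 23.7%) and 4 to 11 lower (10 to 19.8%). With the replicate block 3 were higher in A-498 (32.1%). The block changed no count for pooled knockdown or the difference between lines, which stayed at 0 under the alternatives run. Hairpin 1 stayed at 0 too. Over all genes hairpin 1 called 30, against 478 without the filter and 466 with DESeq2, and hairpin 3 1351, against 2654 and 2589. Pooled knockdown called 0 genes, against 92 with DESeq2 and 26 with the replicate block. The median of all genes between the lines was 0.122 without the filter, against 0.0202.

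Some signs turned. Over the left-out libraries the hairpin 1 fold change ran from -0.77 to 0.034 for ERN1, from -0.0801 to 0.13 for HSPA5, from -0.13 to 0.51 for XBP1 and from -0.0515 to 0.11 for HERPUD1, and the difference between lines from -1.003 to 0.0911 for PDIA4. The 4 genes called with hairpin 3 kept their direction with DESeq2 size factors, plain library totals, no filter and DESeq2. SEC61B was lost between the lines with DESeq2 size factors and without the filter. The hairpin 1 signs of ERN1, HSPA5, XBP1 and HERPUD1 turned without the A-498 hairpin 1 library, which leaves hairpin 1 in 786-O only. For the difference between lines, leaving out a knockdown library leaves 1 line with 1 hairpin and the other with both. Beyond this, the cause of these changes was not tested. The difference between lines could not be fitted without a control library.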
